A study of Mus musculus with 4 samples.

Results

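Apc and 7 other genes of the canonical Wnt pathway, Ctnnb1, Axin1, Axin2, Gsk3b, Tcf7l1, Tcf7l2 and Lef1, were followed through the progenitors and neurons of the medial ganglionic eminence (MGE), a germinal region of the ventral telencephalon. The 8 genes were taken by symbol from the 32285 genes of the count matrices, and all 8 were found. Microdissected MGE of e14.5 embryos had been profiled cell by cell in 10x Genomics droplets. Levels were read in barcodes with at least 3000 unique molecular identifiers (UMIs) and at most 10% mitochondrial UMIs, of which there were 19031. After removal of the highest doublet scores 18267 cells remained, with 10146 neurons and 7884 progenitors.

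The embryos came from St18 heterozygous parents on a mixed strain labelled C57/BL6 ICR mix. St18(-/-) embryos, called null, and wildtype embryos, called WT, were compared at the same age, with 2 libraries each. St18 encodes a zinc finger transcription factor, and the null allele was present in the whole animal rather than in the MGE alone. Embryos had been pooled by genotype, and how many embryos entered a pool, and of which sex, was not given in the sources used here. Between genotypes, p-values therefore measure the spread between libraries. Between classes of cells, differences were tested within libraries, so p-values there measure how far such a difference varies from library to library. In both, edgeR moderates the variance of a gene by that of other genes.

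Canonical Wnt signalling is controlled by the stability of beta-catenin, the product of Ctnnb1. Without a Wnt ligand, a destruction complex of the scaffolds Apc and Axin with the kinase Gsk3b marks beta-catenin for degradation, and with a ligand beta-catenin enters the nucleus and acts through DNA-binding factors of the TCF/LEF family, Tcf7l1, Tcf7l2 and Lef1 among them. In the forebrain the pathway is known for dorsal patterning and for keeping progenitors in cycle, and Apc and Gsk3b also act on microtubules in growing axons and migrating neurons.

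The libraries held 70991150 to 92984713 UMIs, with a median of 6186 to 9352 UMIs per cell, and any pair of libraries shared 4 to 11 cell barcodes. The null allele lacks an internal stretch of exons, per the study's methods, and a shortened transcript can still be made from it. UMIs over the whole gene do not read the deleted part, so the level of St18 is no direct check of genotype. It was not lower in 1 of the null libraries. In neurons it stood at 25.04 CPM (UMIs of the gene per 1000000 UMIs of the cells summed) in the library labelled null replicate 1 and at 76.8 in that labelled null replicate 2, against 43.9 and 58.4 in those labelled WT. Within null replicate 2 it was at 97.1 CPM in female-classed and 30.7 CPM in male-classed neurons. Xist was at 596 and 1477 CPM in neurons of the null libraries and was counted 3 and 1 times in those of the WT libraries, so sex and genotype cannot be told apart in sums over all cells. The libraries are named by their labels, and the genotype differences of the members in all neurons and in all progenitors are given with and without null replicate 2 and in male-classed cells. The stages and subtypes and the other Wnt genes were not refitted in male-classed cells. Whether every cell of null replicate 2 is null was not tested, and each null mean and SD includes this library. In sums of cells, fewer expressing cells and less RNA per cell cannot be told apart.

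Radial glia-like clusters held 1651 progenitors, by markers such as Hes5, Fabp7 and Slc1a3, and basal progenitor-like clusters held 5583, by markers such as Dlx1 and Dlx2. Among neurons, 2368 cells were cortical interneuron-like (Maf, Mef2c, Erbb4, Zeb2), 1788 were Nkx2-1 ventral-like (Nkx2-1, Lhx8, Gbx1, Zic1), 1236 resembled neurons of the lateral (LGE-like) and 805 of the caudal ganglionic eminence (CGE-like), 60 were pallial-like and 3889 were left unnamed. Some of these names are weak. Scores are the mean of a list's markers in SDs over the clusters of a class. Of the basal progenitor-like cells, progenitor clusters 0, 5 and 7 scored -0.05, -0.12 and 0.09 for basal progenitor markers. Of these 8 markers, 3, 4 and 4 were past the limits for a name. Cluster 7 scored higher for LGE markers, at 0.35, with 0 past the limits. Radial glia-like and basal progenitor-like cells were not compared without these clusters. Of the CGE-like cells, cluster 15, led by Hmx2, scored 0.94 for CGE markers and 1.4 for diencephalic or hypothalamic markers (the mean of the markers in SDs over the neuron clusters, with 3 CGE and 0 diencephalic or hypothalamic markers past the limits for a name), and of the LGE-like cells, cluster 17 scored 0.83 for LGE and 1.04 for diencephalic or hypothalamic markers. CGE-like cells as a whole held cortical interneuron markers at 1495, 2277, 1740 and 1404 CPM and CGE markers at 1276, 1477, 744 and 1210 CPM, in the order null 1, null 2, WT 1 and WT 2. The 8 genes and 108 further Wnt genes took no part in the clustering, although genes that vary with them did. For each library the UMIs of a class were added up, and classes were compared with the library as a block.

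Between progenitors and neurons, Apc and Gsk3b took a larger share of the transcripts in neurons, and the TCF/LEF factors and Ctnnb1 took a larger share in progenitors. Of the 8 members, 5 were higher in progenitors, 2 were higher in neurons and Axin2 was not called (edgeR's quasi-likelihood test, Benjamini-Hochberg adjusted over 14391 genes). The same test called 79.6% of all genes tested, 39.5% as higher and 40.2% as lower in progenitors, so a call alone sets no member apart. The sizes of the differences are therefore given beside the share of all genes that differed at least as far in the same direction. The median log2 fold change of progenitors over neurons was 0.38 for the members and -0.02 for all genes tested.

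**Figure D1:**
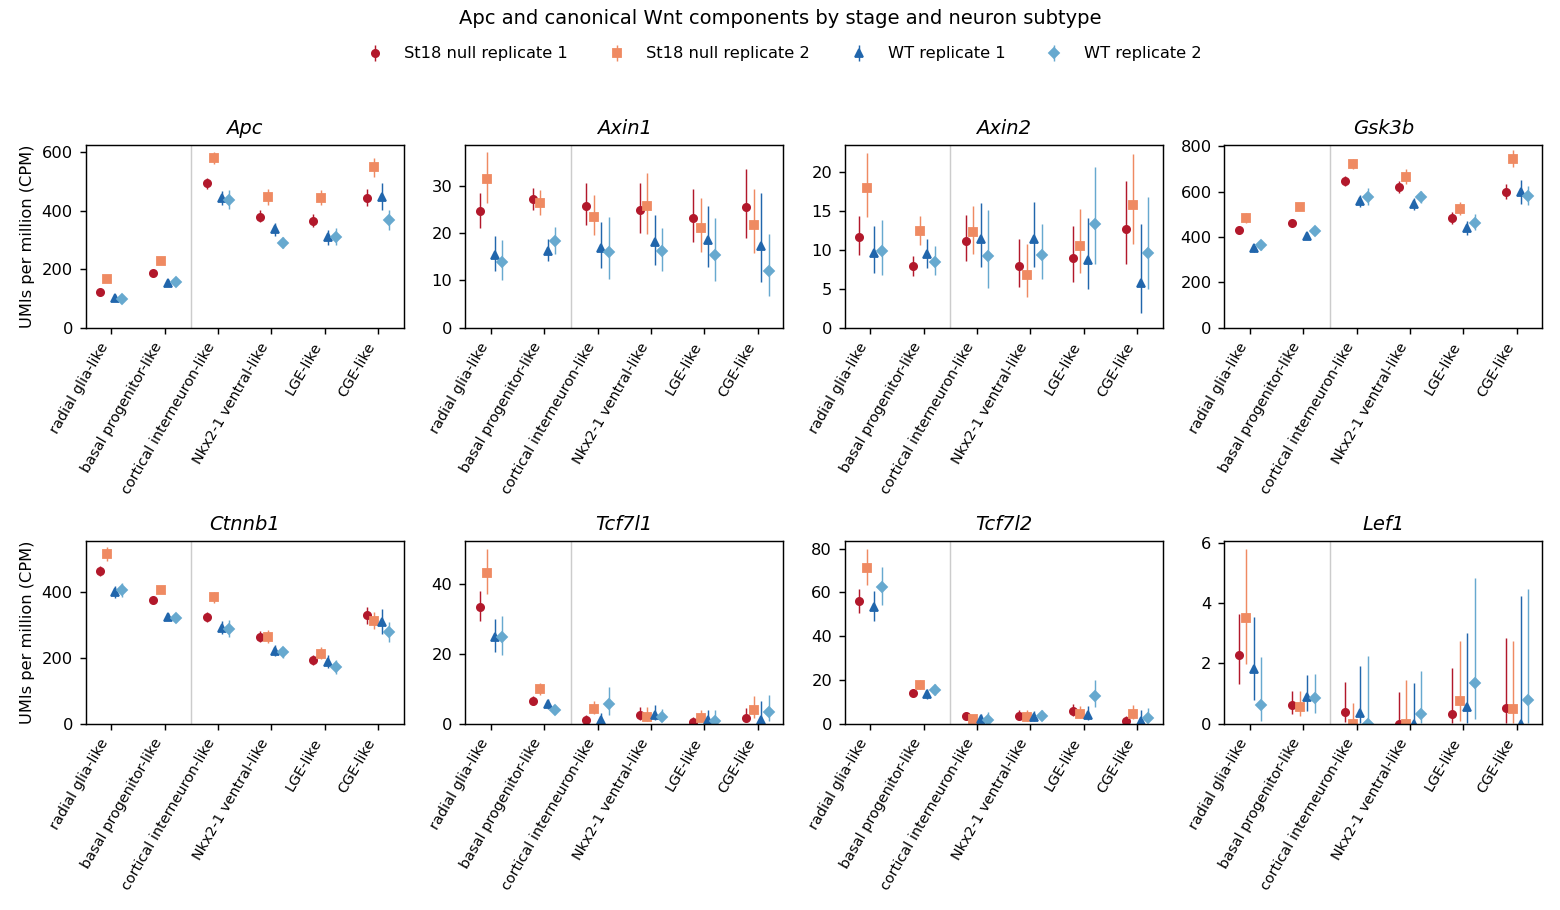
Levels of the 8 members in CPM (vertical axes, from 0) in 2 progenitor stages and 4 neuron subtypes (horizontal axes), 1 symbol per library, with exact 95% Poisson intervals that cover counting error only. Apc was at 97.0 to 229 CPM in the progenitor stages and at 291 to 579 CPM in the neuron subtypes, while Tcf7l1 and Tcf7l2 were highest in radial glia-like cells.

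Apc, the large scaffold of the destruction complex, was at 167, 209, 137 and 138 CPM in progenitors (in the order given above, which holds for each list of 4 values). In neurons it was at 397, 475, 338 and 313 CPM. Every neuron value was above every progenitor value, and null replicate 2 was the highest library in both classes. The log2 fold change of progenitors over neurons was -1.17 (SE 0.03, adjusted p = 3.51e-15), and 12.4% of genes were at least as much lower. In cells thinned to 3000 UMIs, an Apc UMI was seen in 56.7 to 71.6% of neurons and 30.6 to 41.9% of progenitors per library (75.0 to 90.8% and 60.4 to 80.4% unthinned). In erythroid cells, which should hold little of it, the thinned share was 0 to 11.1% (5.56 to 12.2% unthinned), with a median of 11387 UMIs per erythroid cell against 5495 to 8189 per neuron and 7929.5 to 11939 per progenitor in the 4 libraries. Since 5 erythroid markers, mostly globins, took 80.3 to 86.2% of the erythroid UMIs, few UMIs were left for other genes, and the erythroid share is no like-for-like background for the other classes.

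Gsk3b, the kinase that phosphorylates beta-catenin in the complex, differed in the same direction by less. It was at 449, 509, 385 and 401 CPM in progenitors and at 598, 661, 523 and 546 CPM in neurons. Neurons were higher in 4 of 4 libraries, and the ranges of the classes were apart. On the log2 scale this came to -0.35 (SE 0.03, adjusted p = 1.26e-08), and 32.5% of genes were at least as much lower.

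Axin1, the constitutive scaffold that limits assembly of the complex, was at 26.4, 27.1, 16.1 and 16.9 CPM in progenitors and at 22.8, 22.9, 16.0 and 16.1 CPM in neurons. The null libraries lay above the WT libraries in both classes, and progenitors exceeded neurons in 4 of 4 libraries, by little in the WT libraries. For Axin1 the log2 fold change was 0.21 (SE 0.06, adjusted p = 0.00276), a size that 37.8% of genes reached, but without the library as a block it was not called (0.20, adjusted p = 0.265); over the alternatives the adjusted p ran from 0.00193 to 0.265. Axin2, which is induced by the pathway and feeds back on it, was at 9.09, 13.5, 9.52 and 9.01 CPM in progenitors and at 9.79, 11.9, 8.64 and 9.55 CPM in neurons. The classes overlapped, and the log2 fold change of 0.09 (SE 0.08) had an adjusted p of 0.295 and was reached by 44.1% of genes. In 1 of 2 repeat clusterings Axin2 was called (0.21, adjusted p = 0.0267), and over the alternatives its adjusted p ran from 0.0267 to 0.863.

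Ctnnb1 was at 403, 441, 348 and 342 CPM in progenitors and at 288, 315, 249 and 238 CPM in neurons. Each library's progenitors exceeded its neurons, and the ranges of the classes were apart. Its log2 fold change was 0.56 (SE 0.03, adjusted p = 9.68e-11), which 24.4% of genes reached. Beta-catenin also joins cadherins at cell contacts, so its transcript is not specific to Wnt signalling.

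The TCF/LEF factors Tcf7l1 and Tcf7l2 had the largest differences of the 8 members between these classes. Tcf7l1, which represses targets when beta-catenin is absent, was at 14.49, 18.4, 10.8 and 9.16 CPM in progenitors and at 1.49, 3.10, 1.35 and 2.41 CPM in neurons. Tcf7l2, which can repress or activate, was at 27.9, 32.7, 25.6 and 26.8 CPM in progenitors and at 9.70, 10.03, 5.24 and 7.07 CPM in neurons. For neither gene did the classes overlap. In the test, the log2 fold change was 2.77 (SE 0.14, adjusted p = 9.69e-12) for Tcf7l1 and 1.84 (SE 0.09, adjusted p = 5.93e-12) for Tcf7l2, and 4.18% and 8.36% of all genes were at least as much higher in progenitors. Without a cluster of 60 pallial-like neurons that held 36.7% of the neurons' Tcf7l2 UMIs, the value for Tcf7l2 was 2.47 (SE 0.08, adjusted p = 1.16e-14), with adjusted p from 8.28e-130 to 3.48e-07 over the alternatives. Lef1, an activator known from dorsal midline and vascular cells, was counted 93 times in progenitors and 42 times in neurons. Its log2 fold change was 0.98 (SE 0.30, adjusted p = 0.00583), which 15.8% of genes reached, or 1.75 (SE 0.33, adjusted p = 1.17e-04) without the pallial-like cluster, which held 42.9% of its UMIs in neurons (adjusted p from 1.17e-04 to 0.0347 over the alternatives). Its level in a single library was 0.283 to 1.55 CPM.

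Radial glia-like cells line the ventricle, and basal progenitor-like cells are on the way to becoming neurons. All 3 TCF/LEF factors were called higher in radial glia-like cells, Lef1 from few UMIs, and Apc and Gsk3b were higher in basal progenitor-like cells. The test called 7 of 8 members, 5 higher and 2 lower in radial glia-like cells, where it called 65.3% of 13033 genes, 33% higher and 32.3% lower. Without the library as a block 3 members and 47.3% of all genes were called. Which members kept the call is not given here, and unless another setting is named the adjusted p-values of these stages below have the block.

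Tcf7l1 was at 33.4, 43.1, 24.8 and 24.6 CPM in radial glia-like cells and at 6.50, 9.76, 5.56 and 3.89 CPM in basal progenitor-like cells. Tcf7l2 was at 55.9, 71.2, 53.4 and 62.5 CPM in the former and at 14.2, 17.8, 13.5 and 15.4 CPM in the latter. Neither gene's ranges overlapped between the stages. The log2 fold change of radial glia-like over basal progenitor-like cells was 2.21 (SE 0.10, adjusted p = 3.17e-18) for Tcf7l1 and 1.91 (SE 0.08, adjusted p = 3.52e-20) for Tcf7l2 by edgeR's quasi-likelihood test. At least as far in this direction were 3.47% and 4.76% of all genes. For Lef1 it was 1.51 (SE 0.39, adjusted p = 0.00118), reached by 6.75% of genes, from 42 UMIs in radial glia-like and 38 in basal progenitor-like cells. By library Lef1 ran from 0.616 to 3.51 CPM in the former and from 0.558 to 0.882 CPM in the latter, so the ranges overlapped. Droplets with under 100 UMIs, which hold free RNA, had Lef1 at 0.493 to 2.77 CPM. Radial glia-like cells were 20.9% of the progenitors and held 57.2% of their Tcf7l1 UMIs, 51.7% of their Tcf7l2 UMIs, 45.2% of their Lef1 UMIs and 18.3% of their Apc UMIs.

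Because Tcf7l1 and Tcf7l2 were both highest in radial glia-like cells among the classes compared, the stretches of 250 bases before their annotated starts are shown (RefSeq, GRCm38.p6). Of the 8 members, 6 had an entry in the promoter set, with 11 starts, and Apc and Axin1 had none. Capitals mark matches to CTTTGNN on either strand, where each N had to be A or T, which gives 4 forms of the core that TCF/LEF proteins bind. The Tcf7l1 stretch lies at chr6:72789046-72789295 on the minus strand, and the 2 Tcf7l2 stretches lie at chr19:55741560-55741809 and chr19:55895071-55895320 on the plus strand.
Tcf7l1: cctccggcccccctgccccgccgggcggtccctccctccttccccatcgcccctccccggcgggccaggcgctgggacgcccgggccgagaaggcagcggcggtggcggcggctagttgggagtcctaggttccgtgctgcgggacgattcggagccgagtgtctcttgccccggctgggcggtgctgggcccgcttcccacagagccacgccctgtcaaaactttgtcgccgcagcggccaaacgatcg
Tcf7l2, first start: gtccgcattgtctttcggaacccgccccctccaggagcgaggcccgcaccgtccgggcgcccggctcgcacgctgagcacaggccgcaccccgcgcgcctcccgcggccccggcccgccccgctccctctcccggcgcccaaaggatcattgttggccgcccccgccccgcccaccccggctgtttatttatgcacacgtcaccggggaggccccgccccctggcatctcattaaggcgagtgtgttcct
Tcf7l2, second start: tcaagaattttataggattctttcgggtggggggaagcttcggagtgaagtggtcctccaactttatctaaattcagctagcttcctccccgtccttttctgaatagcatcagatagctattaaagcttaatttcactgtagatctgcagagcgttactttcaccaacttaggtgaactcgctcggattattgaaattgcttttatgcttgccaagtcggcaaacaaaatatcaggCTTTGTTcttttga
No match stood in the Tcf7l1 stretch or before the first Tcf7l2 start, whose content of G and C was 73.6% and 72.8%. The stretch before the second Tcf7l2 start, with 40.8% G and C, held CTTTGTT with its first base 14 bases before the start. At least 1 of these words stood in 14.8% of 32851 promoter stretches of this length and in 2 of the 11 member stretches, the other being a Lef1 start, so the share among members is read as no more than a description. No match says only that these letters are not in this window.

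Apc was at 122, 168, 103 and 97.0 CPM in radial glia-like cells and at 186, 229, 153 and 156 CPM in basal progenitor-like cells. Within each library the level in basal progenitor-like cells was 1.37 to 1.61 times that in radial glia-like cells, while the ranges over libraries overlapped. The log2 fold change of radial glia-like over basal progenitor-like cells was -0.65 (SE 0.05, adjusted p = 1.86e-13) by edgeR's test, and 12.8% of genes were at least as much lower. Gsk3b was at 429.9, 482, 353 and 365 CPM in radial glia-like and 462, 533, 405 and 424 CPM in basal progenitor-like cells, with -0.24 (SE 0.03, adjusted p = 1.61e-07). Ctnnb1 was at 464, 517, 400.1 and 407 CPM in the former and 376, 408, 325 and 321 CPM in the latter, with 0.24 (SE 0.03, adjusted p = 2.19e-07). For both, the direction was the same in 4 of 4 libraries, Gsk3b with the lower and Ctnnb1 with the higher level in radial glia-like cells. Differences of these sizes were common, with 31.7% of genes at least as much lower as Gsk3b and 33.8% at least as much higher as Ctnnb1.

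Axin2 was at 11.6, 18.0, 9.69 and 9.85 CPM in radial glia-like cells and at 7.91, 12.5, 9.44 and 8.51 CPM in basal progenitor-like cells. Among progenitor clusters Axin2 was highest in cluster 10, at 21.05 CPM (SD 5.86). This cluster was radial glia-like and also led by Olig1 and Pdgfra, genes of the oligodendrocyte lineage, and the stages were not compared without it. Between the stages the log2 fold change of Axin2 was 0.30 (SE 0.13, adjusted p = 0.0375) by edgeR's test, which 30.5% of genes reached. The call was lost without null replicate 1 (0.20, adjusted p = 0.268), without null replicate 2 (0.22, adjusted p = 0.192), with DESeq2 (adjusted p = 0.23), in thinned cells (adjusted p = 0.567) and in 1 of 2 repeat clusterings (adjusted p = 0.119), and over the alternatives the adjusted p ran from 0.00825 to 0.567. Axin1 was at 24.6, 31.4, 15.3 and 13.8 CPM in radial glia-like and 27.2, 26.3, 16.3 and 18.3 CPM in basal progenitor-like cells. It was higher in the latter in 3 of 4 libraries, with overlapping ranges, and was not called (-0.13, SE 0.10, adjusted p = 0.238, a size reached by 39.7% of genes). Without null replicate 2 it was called as lower in radial glia-like cells (-0.28, adjusted p = 0.0182), with adjusted p from 0.0182 to 0.678 over the alternatives.

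Apc also varied among the clusters of each class. The mean over libraries ran from 90 CPM (SD 15.3, n = 4) in progenitor cluster 2, which was radial glia-like, to 314 CPM (SD 24.0) in progenitor cluster 7, and from 225 CPM (SD 59.6) in neuron cluster 13, which was led by genes of division such as Mki67 and Top2a, to 596 CPM (SD 43.3) in neuron cluster 5, which was cortical interneuron-like. Of 23 neuron clusters, 18 had a mean above each of the 15 named progenitor clusters. Progenitor cluster 7 took the basal progenitor-like name but was led by genes of neurons such as Plxna4, Erbb4 and Maf, and 37.7% of its cells had been removed by their doublet scores. Without that cluster and the clusters led by genes of the other class, 7 of 8 members were again called between progenitors and neurons, in a comparison added after the data were seen in which 80% of all genes were called. Null replicate 2 had the highest Apc of the 4 libraries in 20 of 23 neuron clusters and in 14 of 16 progenitor clusters with cells in each library. It also had the most UMIs per cell, with a median of 8189 in neurons against 5928.5, 5495 and 5514.5 in null replicate 1 and the WT replicates, and the part of depth in the levels was not tested.

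**Figure D2:**
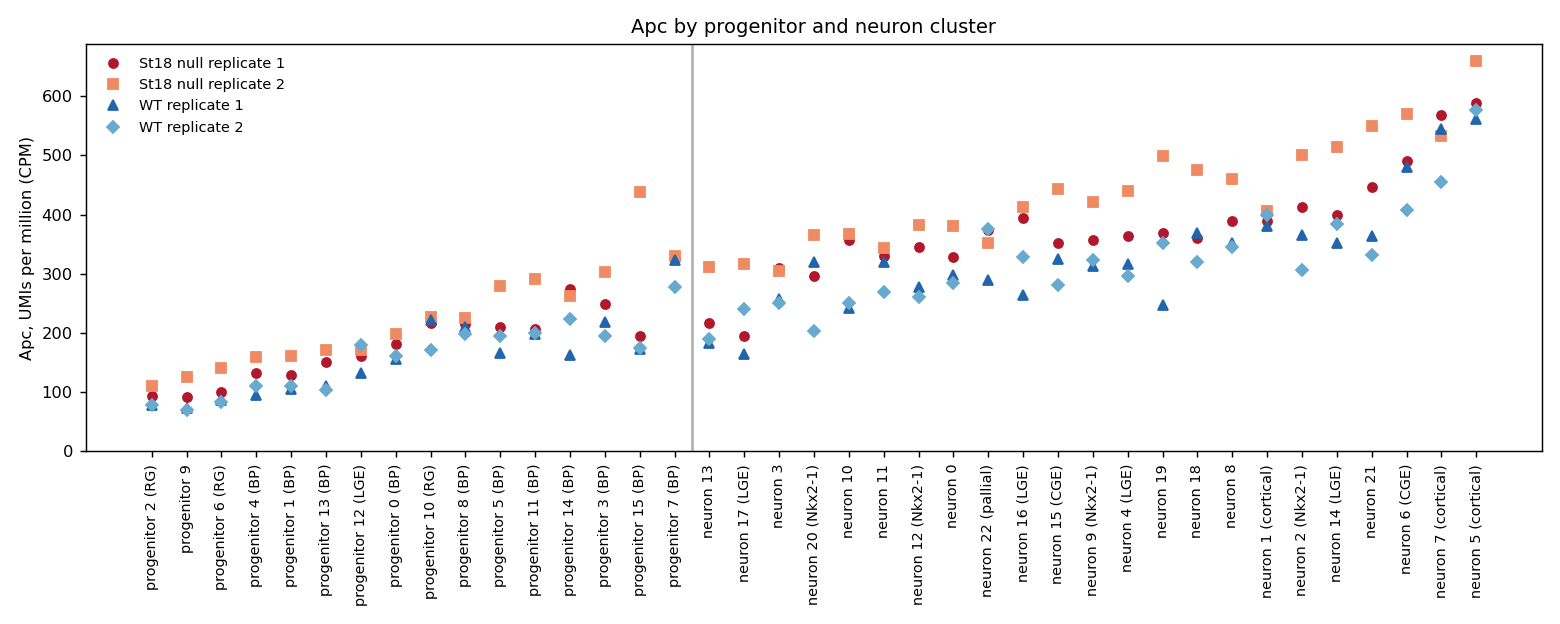
Apc in CPM (vertical axis, from 0) in each progenitor cluster (left of the line) and neuron cluster (right), 1 symbol per library, ordered by the mean within each class, with RG and BP for radial glia-like and basal progenitor-like clusters. Neuron clusters 5 and 7, both cortical interneuron-like, stood at 596 and 525 CPM on average, and neuron cluster 3 at 281 CPM.

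Among neurons, Apc was at 493, 579, 443 and 437 CPM in cortical interneuron-like cells and at 380, 446, 336 and 291 CPM in Nkx2-1 ventral-like cells. The former stood at 1.30 to 1.502 times the latter in 4 of 4 libraries, while the ranges over libraries overlapped. Cortical interneuron precursors travel far along tangential routes, whereas ventral MGE neurons settle in the basal forebrain. For Apc the log2 fold change was 0.45 (SE 0.04, adjusted p = 3.55e-23) by edgeR's quasi-likelihood test, and 8.67% of 11071 genes were at least as much higher in the interneuron-like cells. The test called 3 of the 7 members tested, all higher in these cells, and 36.2% of all genes, 16.5% higher and 19.7% lower.

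Ctnnb1 was at 324, 384, 293 and 289 CPM in cortical interneuron-like and at 264, 265, 222 and 217 CPM in Nkx2-1 ventral-like cells, without overlap, with 0.44 (SE 0.05, adjusted p = 5.80e-18) on the log2 scale by edgeR's test, reached by 9.17% of genes. Gsk3b was at 644, 720.3, 558 and 576 CPM in the former and 619, 665, 545 and 574 CPM in the latter, higher in the former in 4 of 4 libraries with overlapping ranges, with 0.09 (SE 0.04, adjusted p = 0.0465), reached by 38.2%. The Gsk3b call was lost without null replicate 1 (0.09, adjusted p = 0.119), without null replicate 2 (0.07, adjusted p = 0.22), with DESeq2 (adjusted p = 0.192) and in both repeat clusterings (adjusted p = 0.0513 and 0.103), with adjusted p from 0.0125 to 0.68 over the alternatives. Axin1 (-0.01, SE 0.13), Axin2 (0.40, SE 0.19), Tcf7l1 (0.27, SE 0.43) and Tcf7l2 (-0.43, SE 0.39) were not called, and Lef1 was too low to be tested.

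Pallial-like and unnamed neurons are left out of the orders in this and the next paragraph. In the pallial-like cells Ctnnb1 was at 361, Axin1 at 24.4 and Axin2 at 18.8 CPM on average, the Axin genes from 13 and 9 UMIs. By mean CPM over the 4 libraries, Apc was ordered from high to low as cortical interneuron-like (488, SD 65.7), CGE-like (451, SD 74.3), Nkx2-1 ventral-like (363, SD 65.9), LGE-like (357, SD 63.0), basal progenitor-like (181, SD 35.4) and radial glia-like cells (122, SD 32.0). Of these neighbours, the ranges of the libraries were apart for LGE-like and basal progenitor-like cells and overlapped for the others. Ctnnb1 began with radial glia-like cells (447, SD 54.6), followed by basal progenitor-like (358, SD 42.1), cortical interneuron-like (322, SD 44.3), CGE-like (308, SD 21.4), Nkx2-1 ventral-like (242, SD 26.0) and LGE-like cells (192, SD 16.9). Here the ranges were apart for CGE-like and Nkx2-1 ventral-like and for Nkx2-1 ventral-like and LGE-like cells.

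Gsk3b ran from 631 CPM (SD 76.7) in CGE-like to 408 CPM (SD 60.2) in radial glia-like cells, with the ranges of all neighbours overlapping except those of Nkx2-1 ventral-like and LGE-like cells. Axin1 lay between 19.1 CPM (SD 5.84) in CGE-like and 22.0 CPM (SD 5.54) in basal progenitor-like cells, and Axin2 between 8.85 CPM (SD 2.02) in Nkx2-1 ventral-like and 12.3 CPM (SD 3.92) in radial glia-like cells. For both Axin genes the span of the class means was about the size of the spread over libraries within a class, and all neighbours overlapped. Tcf7l1 went from radial glia-like (31.5, SD 8.77) through basal progenitor-like cells (6.42, SD 2.47) to neuron subtypes at 0.901 to 2.995 CPM on average, and Tcf7l2 from 60.8, SD 7.97 and 15.2, SD 1.88 to 2.26 to 6.69 CPM. Radial glia-like and basal progenitor-like ranges were apart for both.

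Tcf7l2 had a second place of high level that Tcf7l1 lacked. A cluster of 60 pallial-like neurons, led by Neurod6, Neurod2 and Eomes, genes of cortical excitatory neurons and their precursors, held Tcf7l2 at 572, 184, 543 and 268 CPM and 0 Tcf7l1 UMIs, which allows up to 3. It had 17, 23, 4 and 16 cells in the 4 libraries, of which 52.9, 17.4, 50 and 18.8% held a Tcf7l2 UMI. The 7 pallial markers summed to 684, 2381, 869 and 711 CPM and the markers of diencephalic or hypothalamic neurons to 339, 245, 109 and 585 CPM in this cluster. Its LGE markers summed to 1341, 562, 2172 and 886 CPM and its CGE markers to 1214, 455, 1014 and 986 CPM. It scored 4.57 for pallial and 2.52 for diencephalic or hypothalamic markers. Tcf7l2 was lowest in null replicate 2, where the pallial markers were highest, and its level is given for the cluster, not for pallial neurons. Its share of the Tcf7l2 UMIs of all neurons was 36.7%, or 207 of 564, and its share of the Lef1 UMIs was 42.9%, or 18 of 42. Neuron cluster 13, led by genes of division, followed with 43.6 CPM of Tcf7l2 (SD 10.9). Among progenitor clusters, Tcf7l2 was highest in cluster 6, which was radial glia-like (70.2 CPM, SD 6.15), and Tcf7l1 in cluster 10 (37.4 CPM, SD 15.5), which was radial glia-like by its markers and also led by Olig1 and Pdgfra, genes of the oligodendrocyte lineage.

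The neuron clusters whose shares differed most between the genotypes differed in Apc as well. Neuron cluster 7, cortical interneuron-like and led by Neb, Epha4, Plxna4 and Maf, made up 5.33, 15.1, 2.33 and 1.39% of the neurons of the 4 libraries. Neuron cluster 3, unnamed and led by Npy, Hist1h2bc, S100a10 and Rnd2, with Mt1 and Hba-a1 also among its leading genes, made up 3.55, 2.42, 15.9 and 13.1%. The comparison of this pair was added after the data were seen and the pair was chosen by these shares, so the shares are a description. Median UMIs per cell were 5627, 7536, 6161 and 5445 in cluster 7 and 4484.5, 3642, 4545 and 4376.5 in cluster 3. The alternatives below include cells thinned to 3000 UMIs. Apc was at 568, 533, 544 and 455 CPM in cluster 7, from 628, 1380, 205 and 83 UMIs. It was at 310.1, 304, 257 and 251 CPM in cluster 3, from 167, 64, 461 and 331 UMIs. Cluster 7 stood at 1.75 to 2.12 times the level of cluster 3 in 4 of 4 libraries, and by mean level it was the second of 23 neuron clusters and cluster 3 was at rank 21.

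With the library as a block, the log2 fold change of Apc in cluster 7 over cluster 3 was 0.75 (SE 0.12, edgeR quasi-likelihood adjusted p = 6.00e-06). The test called 1 of the 5 members tested and 18.7% of 8306 genes, 7.69% as higher and 11% as lower in cluster 7, and 6.16% of genes were at least as much higher as Apc. With library totals alone the balance of calls turned from 639 higher and 913 lower to 1169 higher and 499 lower, and the log2 fold change of the median gene moved from 0.03 to 0.20. The value of Apc was between 0.67 and 0.92 under the alternatives, which include 2 repeat clusterings in which the same rule again chose a cluster led by Neb, Plxna4 and Maf and one led by Npy and Rnd2. Gsk3b was not called (0.25, SE 0.12, adjusted p = 0.128), but it was without null replicate 2 (0.25, adjusted p = 0.0153), with library totals alone (0.43, adjusted p = 0.00248) and in both repeat clusterings (0.31, adjusted p = 0.03 and 0.24, adjusted p = 0.0159), with adjusted p from 0.00248 to 0.313 over the alternatives. Axin1 (0.37, SE 0.37), Axin2 (0.64, SE 0.63) and Ctnnb1 (0.07, SE 0.12) were not called, and the TCF/LEF factors were too low to be tested.

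The comparison of null with WT asked whether loss of St18 changes these genes in the neurons or progenitors of the MGE. No member passed in either class. In neurons Apc was at 436 CPM (SD 55.6, n = 2) in null and 326 CPM (SD 17.8, n = 2) in WT libraries, and in progenitors at 188 CPM (SD 30.1) and 138 CPM (SD 0.959). Both null libraries exceeded both WT libraries in both classes. The fitted genotype difference (log2, null less WT) was 0.27 (SE 0.13, with an adjusted p of 0.309) in neurons and 0.25 (SE 0.12, with an adjusted p of 0.316) in progenitors by edgeR's quasi-likelihood test. With equal numbers of cells per cluster the log2 fold change of Apc was 0.18 in neurons (SE 0.11) and 0.19 in progenitors (SE 0.11), and the part of cluster sizes in the difference was not tested. Sums of some marker lists differed between the genotypes in the same cells, and others overlapped. These sums are in CPM, in which 42.7% of all genes in neurons and 48.3% in progenitors were higher in both null libraries. In neurons the 8 cortical interneuron markers stood at 1693, 2124, 1500 and 1254 CPM, the 8 basal progenitor markers at 1936, 1978, 1631 and 1346, the 10 progenitor markers at 1313, 1310, 1073 and 1027 and the 6 Nkx2-1 ventral markers at 623, 609, 658 and 827 CPM, the last lower in null. In progenitors the 10 progenitor markers stood at 6108, 6393, 5335 and 5263 CPM and the 8 cortical interneuron markers at 716, 914, 603 and 606. The basal progenitor markers there stood at 3778, 3966, 3262 and 3182. The LGE and CGE lists were also higher in both null libraries in both classes. So were, in progenitors, the radial glia (2837, 2594, 2539 and 2464), neuron (1528, 1496, 1325 and 1442) and Sst interneuron markers (204, 214, 185 and 177). The oligodendrocyte precursor markers there stood at 135, 158, 118 and 115. Endothelial and pericyte markers, at low levels in progenitors, were lower in both null libraries. In neurons the genotypes overlapped for the neuron markers (6148, 5543, 5496 and 5700) and the radial glia markers (505, 463, 426 and 470). So did the Sst interneuron markers there (865, 775, 1031 and 798). In progenitors the Nkx2-1 ventral markers overlapped (561.5, 566, 513 and 592). The part of these lists in the genotype differences was not tested.

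The test called 0.0807% of 13630 genes in neurons, 5 higher and 6 lower in null, and 0.0294% of 13608 in progenitors, 2 and 2. With library totals alone it called 179 higher and 60 lower in neurons and 32 and 14 in progenitors. Of the 8 members 0 were called in either, with 2 in neurons and 2 in progenitors at an unadjusted p under 0.05, and DESeq2 also called 0, with 0 and 2 at that level. Of all genes, 17.2% in neurons and 17.3% in progenitors were at an unadjusted p under 0.05 by edgeR, so 2 of 8 is near the background. In CPM, 6 of 8 members were higher in both null than in both WT libraries in neurons and 6 of 8 in progenitors, and 0 were lower. Over all genes tested 42.7% and 48.3% were higher in this sense and 13.4% and 11.2% lower. With library totals alone as the scale, the median gene stood 0.14 and 0.19 higher in null on the log2 scale. On the scale of the test, which centres the genes, the median log2 fold change of the 8 members was 0.21 in neurons and 0.11 in progenitors, against 0.00 for all genes in both.

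**Figure D3:**
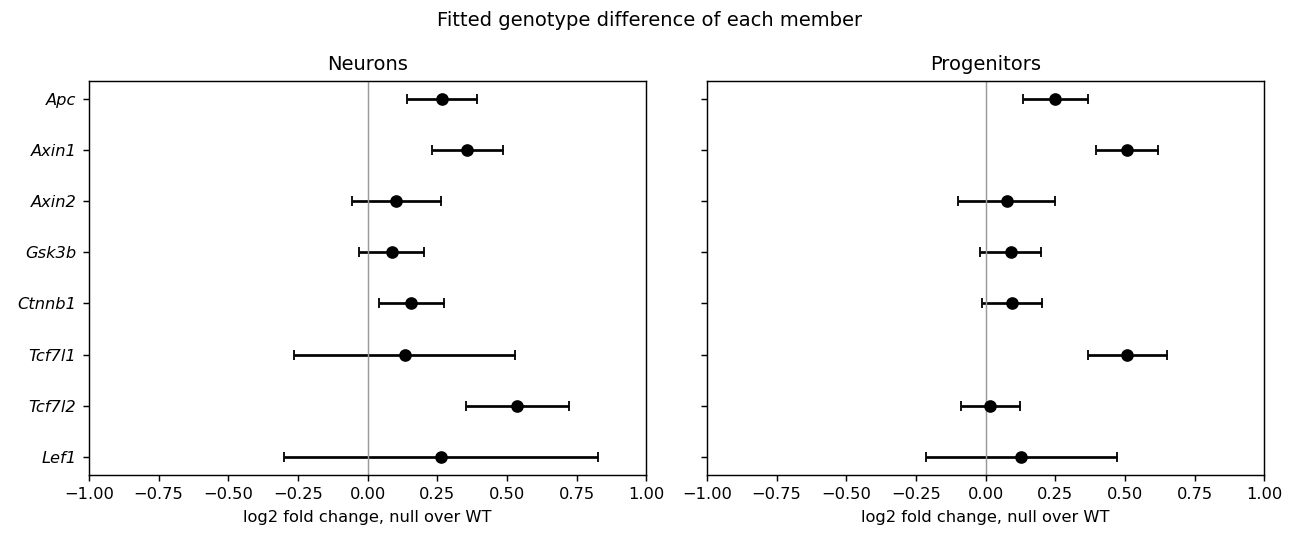
Fitted log2 fold change of null over WT (horizontal axes) for each member in neurons (left) and progenitors (right), with bars of 1 SE, derived from the F statistic of edgeR's quasi-likelihood test over 2 libraries per genotype. Points lie right of 0 in both panels, from 0.09 for Gsk3b to 0.54 for Tcf7l2 in neurons and from 0.02 for Tcf7l2 to 0.51 for Axin1 and Tcf7l1 in progenitors, none passed the adjusted threshold, and those of Axin2, Tcf7l1, Tcf7l2 and Lef1 changed sign under an alternative in at least 1 class.

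Axin1 had the lowest unadjusted p of the members in progenitors. It was at 26.8 CPM (SD 0.462, n = 2) in null and 16.5 CPM (SD 0.578, n = 2) in WT progenitors, with a log2 fold change of 0.51 (SE 0.11, unadjusted p = 0.0019, edgeR adjusted p = 0.117). In neurons it was at 22.8 CPM (SD 0.0987) and 16.1 CPM (SD 0.0967), with 0.36 (SE 0.13, adjusted p = 0.215). The libraries of a genotype lay close together in each class. In male-classed cells the log2 fold change was 0.59 (SE 0.12, adjusted p = 0.106) in progenitors and 0.44 (SE 0.16, adjusted p = 0.304) in neurons, and without null replicate 2 it was 0.41 (SE 0.12, adjusted p = 0.11) in neurons. In radial glia-like cells Axin1 was at 24.6, 31.4, 15.3 and 13.8 CPM, with 0.71 (SE 0.19, adjusted p = 0.0834), where 1.44% of 11557 genes were called. In progenitors Axin1 passed without null replicate 1 (0.46, adjusted p = 6.73e-05), without null replicate 2 (0.56, adjusted p = 1.44e-05) and with no filter on low counts (0.52, adjusted p = 0.00758), and its adjusted p ran from 1.44e-05 to 0.669 over the alternatives, against 0.0744 to 0.766 in neurons. In radial glia-like cells it passed without null replicate 1 (0.81, adjusted p = 0.00137), without null replicate 2 (0.60, adjusted p = 0.0192), with library totals alone (0.92, adjusted p = 0.0244) and with no filter on low counts (0.73, adjusted p = 0.0153), with adjusted p from 0.00137 to 0.434 over the alternatives.

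Tcf7l1 was at 16.4 CPM (SD 2.75) in null and 10.01 CPM (SD 1.19) in WT progenitors, with a log2 fold change of 0.51 (SE 0.14, unadjusted p = 0.00771, edgeR adjusted p = 0.178). It passed without null replicate 1 (0.61, adjusted p = 9.58e-05), without null replicate 2 (0.40, adjusted p = 0.025) and with no filter on low counts (0.52, adjusted p = 0.0159), with adjusted p from 9.58e-05 to 0.795 over the alternatives. In male-classed progenitors it was 0.39 (SE 0.15, adjusted p = 0.293). In neurons Tcf7l1 gave 0.13 (SE 0.40, adjusted p = 0.891), with -0.41 (SE 0.45, adjusted p = 0.667) without null replicate 2 and 0.09 (SE 0.48, adjusted p = 0.946) in male-classed cells, and adjusted p from 0.353 to 0.973 over the alternatives. Gsk3b passed in progenitors without null replicate 1 (0.12, adjusted p = 0.0271), with adjusted p from 0.0271 to 0.986 over the alternatives.

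Apc passed without null replicate 1, with 0.36 (adjusted p = 0.00963) in neurons and 0.35 (adjusted p = 7.85e-06) in progenitors. Without null replicate 2, the library with the highest St18 in neurons, Apc was at 0.19 (adjusted p = 0.209) and 0.15 (adjusted p = 0.13). In male-classed cells it was at 0.31 (adjusted p = 0.353) and 0.23 (adjusted p = 0.375). Over the alternatives its adjusted p ran from 0.00963 to 0.919 in neurons and from 7.85e-06 to 0.916 in progenitors. The fits without a null library assume that the single null library varies like the others, and they called many genes: without null replicate 1, 1023 higher and 1811 lower of 13711 in neurons and 2053 higher and 2888 lower of 13814 in progenitors, and without null replicate 2, 105 and 350 of 13599 and 889 and 1370 of 13700.

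Tcf7l2 differed between the classes in its genotype difference. It was at 9.86 CPM (SD 0.234) in null and 6.15 CPM (SD 1.29) in WT neurons, with 0.54 (SE 0.18, adjusted p = 0.205), and at 30.3 CPM (SD 3.35) and 26.2 CPM (SD 0.893) in progenitors, with 0.02 (SE 0.11, adjusted p = 0.953), by edgeR's test. The difference of the log2 fold changes, neurons less progenitors, was 0.57 (SE 0.15, unadjusted p = 4.00e-04, edgeR adjusted p = 0.0400). This was 1 of 8 members, where the test called 1.14% of 14391 genes, 1.01% as higher and 0.125% as lower. These 146 higher and 18 lower calls became 52 and 17 with library totals alone and 80 and 83 with no filter on low counts. The call of Tcf7l2 was lost without the 60 pallial-like cells, whose shares of neurons were 0.512, 1.07, 0.164 and 0.718% (0.32, adjusted p = 0.585), without null replicate 1 (0.42, adjusted p = 0.675), without null replicate 2 (0.58, adjusted p = 0.657), without WT replicate 1 (0.40, adjusted p = 0.49) and in both repeat clusterings (adjusted p = 0.106 and 0.0654), with adjusted p from 0.00762 to 0.952 over the alternatives. With equal numbers of cells per cluster the difference between the classes turned to -0.22 (SE 0.22, adjusted p = 0.893), in an alternative added after the data were seen, with -0.28 (SE 0.23) for null over WT in neurons. Within Nkx2-1 ventral-like neurons the genotype difference was -0.01 (SE 0.46) and within LGE-like neurons -0.72 (SE 0.49), or 0.11 and -0.53 without null replicate 2, and Tcf7l2 was too low to be tested in cortical interneuron-like and CGE-like neurons. In male-classed cells the genotype difference of Tcf7l2 was 0.79 (SE 0.39, adjusted p = 0.388) in neurons and 0.02 (SE 0.12, adjusted p = 0.962) in progenitors. Leaving out null replicate 2 gave 0.57 (SE 0.21, adjusted p = 0.183) and -0.03 (SE 0.09, adjusted p = 0.877), with adjusted p from 0.073 to 0.721 and from 0.355 to 0.994 over the alternatives.

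Ctnnb1 was at 302 CPM (SD 18.7) in null and 244 CPM (SD 8.08) in WT neurons, with 0.16 (SE 0.12, adjusted p = 0.503), and gave 0.10 (SE 0.11, adjusted p = 0.66) in progenitors by edgeR's test. Gsk3b gave 0.09 (SE 0.12, adjusted p = 0.732) and 0.09 (SE 0.11, adjusted p = 0.686), Axin2 0.10 (SE 0.16, adjusted p = 0.766) and 0.08 (SE 0.17, adjusted p = 0.845), and Lef1 0.26 (SE 0.56, adjusted p = 0.839) and 0.13 (SE 0.34, adjusted p = 0.868). Of these, Ctnnb1 and Gsk3b were higher in both null than in both WT libraries in both classes. Without null replicate 2, the values in neurons and progenitors were 0.15 and 0.10 for Ctnnb1, 0.07 and 0.07 for Gsk3b, 0.01 and -0.15 for Axin2 and -0.25 and -0.07 for Lef1. In male-classed cells they were 0.24 and 0.09, 0.11 and 0.07, 0.35 and 0.11, and 0.82 and 0.33, in the same order, and none of these values was called.

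Within the 6 stages and subtypes 38 member tests could be made, and 0 were called, with 6 at an unadjusted p under 0.05 (DESeq2 called 0, with 2). At that level stood 7.99 to 19.4% of all genes in the 6 fits. With null replicate 1 left out 12 of 38 member tests were called, where 7.56 to 33.3% of all genes were, and with null replicate 2 left out 4 of 39, where 2.18 to 16.5% were. Of all genes, edgeR called 1.44% in radial glia-like, 0.0782% in basal progenitor-like, 0.58% in cortical interneuron-like, 0.366% in Nkx2-1 ventral-like, 0.0491% in LGE-like and 0.0412% in CGE-like cells. Apc was 0.31 (SE 0.14) in radial glia-like, 0.25 (SE 0.12) in basal progenitor-like and 0.16 (SE 0.14) in cortical interneuron-like cells, and without null replicate 2 it was 0.14 (SE 0.09, adjusted p = 0.37), 0.18 (SE 0.05, adjusted p = 0.0105) and 0.08 (SE 0.07, adjusted p = 0.666) by edgeR's test, where 12.2%, 16.5% and 6.38% of all genes were called. Over the alternatives the adjusted p of Apc ran from 1.54e-04 to 0.77, from 3.40e-09 to 0.999 and from 0.00807 to 0.998 in these cells. With library totals alone the calls over all genes turned from 25 higher and 141 lower in null to 571 and 123 in radial glia-like cells, from 9 and 54 to 29 and 7 in cortical interneuron-like cells and from 8 and 31 to 47 and 25 in Nkx2-1 ventral-like cells.

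The remaining genes of the pathway were read from a list of 108, of which 75 passed the filter on low counts. The test called 64 of them between progenitors and neurons, 33 higher and 31 lower in progenitors, or 85.3% of those tested against 79.6% of all genes. Their median log2 fold change was 0.08, against -0.02 for all genes tested. Of all genes 39.5% were called higher and 40.2% lower in progenitors, the background for the counts by role below. Of 15 receptors tested, 10 were higher and 2 lower in progenitors. Fzd8, a frizzled receptor, was at 24.6 CPM (SD 4.99) in progenitors and 3.43 CPM (SD 0.578) in neurons, and Fzd1 at 16.9 CPM (SD 2.28) in progenitors and 5.25 CPM (SD 0.899) in neurons. Fzd3, known for its part in axon guidance, was at 158 CPM (SD 40.9) in progenitors and 209.9 CPM (SD 50.8) in neurons. All 5 membrane inhibitors tested were higher in progenitors, each under 10 CPM on average.

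Among the 8 ligands tested, 3 were higher and 3 lower in progenitors. Wnt7b was at 11.3 CPM (SD 1.78) in progenitors and 1.43 CPM (SD 0.211) in neurons, with 3.06 (SE 0.13, adjusted p = 3.95e-13) on the log2 scale by edgeR's test. Wnt7a was at 13.8 CPM (SD 1.44) in progenitors and 30.3 CPM (SD 3.62) in neurons, with -1.07 (SE 0.06, adjusted p = 1.62e-11), so the related ligands differed in opposite directions. Porcn, which lipidates Wnt ligands for export, was higher in neurons, at 3.10 CPM (SD 0.553) in progenitors and 14.9 CPM (SD 1.53) in neurons. Of the 5 secreted inhibitors tested, 3 were higher and 2 lower in progenitors, Sfrp2 at 20.7 CPM (SD 2.37) in progenitors and 5.67 CPM (SD 1.55) in neurons and Draxin, an axon guidance protein, at 8.40 CPM (SD 2.21) in progenitors and 23.8 CPM (SD 4.69) in neurons.

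**Figure D4:**
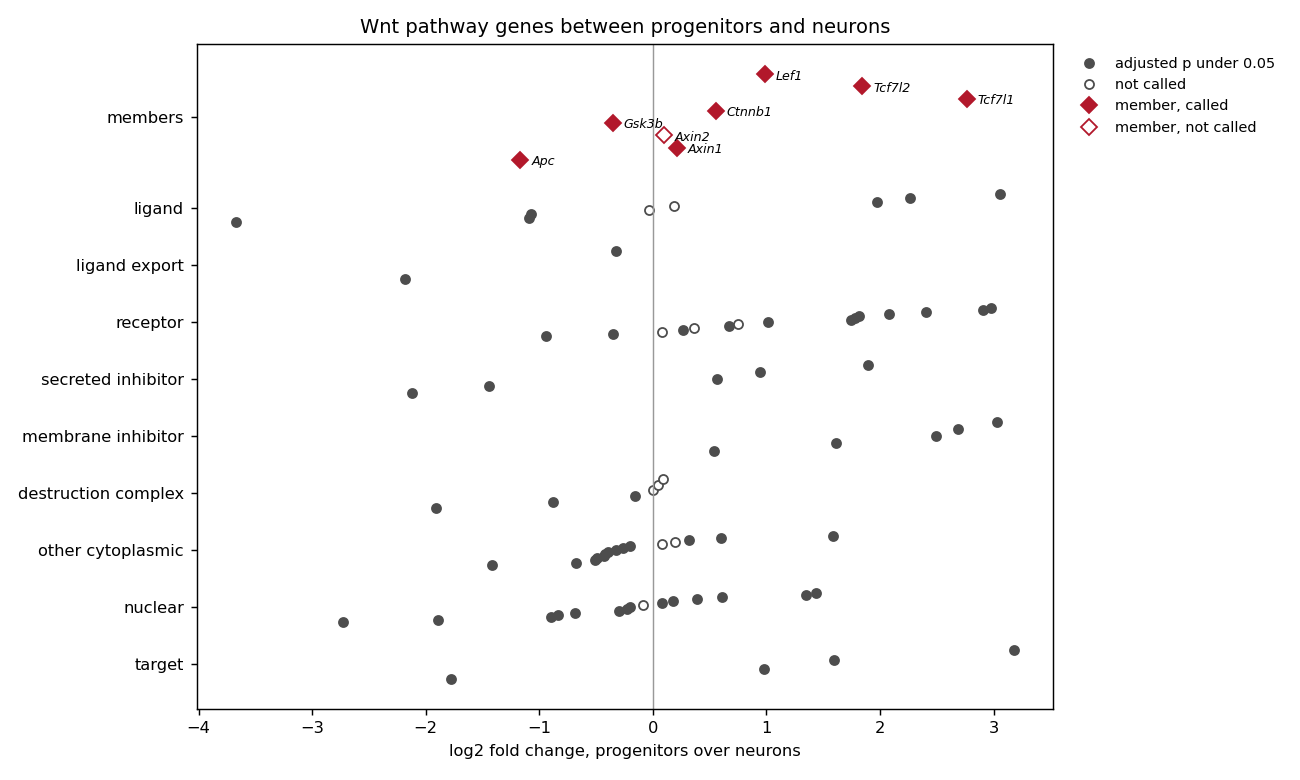
Log2 fold change of progenitors over neurons (horizontal axis) for the 8 members (diamonds) and the 75 other Wnt genes tested (circles), grouped by role from top to bottom, with filled symbols for an adjusted p under 0.05 in edgeR's quasi-likelihood test over 4 libraries. Receptors and membrane inhibitors lie mostly right of 0, while 10 of 15 other cytoplasmic and 8 of 15 nuclear genes were lower in progenitors, against 40.2% of all genes.

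Of the other 6 genes of the destruction complex, 0 were higher and 3 lower in progenitors. This is 50% called against 79.6% of all genes, and 40.2% of all genes were lower. Apc2, the neuronal relative of Apc, was at 41.9 CPM (SD 8.11) in progenitors and 164 CPM (SD 28.5) in neurons, with -1.91 (SE 0.04, adjusted p = 3.93e-17) on the log2 scale by edgeR's test. It too was lower in radial glia-like than in basal progenitor-like cells, with -1.77 (SE 0.09, adjusted p = 7.35e-18). Btrc, which recruits a ubiquitin ligase to beta-catenin, was at 20.1 CPM (SD 4.65) in progenitors and 38.7 CPM (SD 5.13) in neurons, and the kinase Csnk1a1 at 401 CPM (SD 33.2) in progenitors and 468 CPM (SD 32.9) in neurons. Gsk3a, the relative of Gsk3b, was not called (0.09, SE 0.04, adjusted p = 0.0516).

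Of the nuclear genes, the co-repressors of the Tle family split by direction. Tle1 was at 100.5 CPM (SD 11.6) in progenitors and 38.9 CPM (SD 5.40) in neurons, and Tle4 at 29.0 CPM (SD 4.24) in progenitors and 113 CPM (SD 12.9) in neurons. Of the 4 pathway targets tested, 3 were higher and 1 lower in progenitors. Ccnd1, a cyclin that the pathway can induce and that other signals induce too, was at 188 CPM (SD 35.9) in progenitors and 21.7 CPM (SD 2.19) in neurons. Myc, a growth regulator that is also a target, went the other way, at 1.56 CPM (SD 0.443) in progenitors and 5.70 CPM (SD 0.799) in neurons, and edgeR's test gave -1.77 (SE 0.17, adjusted p = 4.02e-08) on the log2 scale for progenitors over neurons. Between radial glia-like and basal progenitor-like cells 27 of the 72 list genes tested were higher and 26 lower in the former, 73.6% against 65.3% of all genes. There, 0 of 15 other cytoplasmic genes were higher and 9 lower, and all 4 pathway targets tested were higher in radial glia-like cells. Of all genes 33% were higher and 32.3% lower. The targets Sp5, Myc and Tnfrsf19 were low, at 0.946, 1.56 and 1.75 CPM on average in progenitors. Myc had an adjusted p of 0.0465 between these stages by edgeR's test.

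None of these 108 genes was called between genotypes by edgeR's test. In neurons 0 of 69 tested passed, with 6 at an unadjusted p under 0.05, and in progenitors 0 of 73, with 9 (DESeq2 called 0 in both, with 2 and 4 at that level). Both edgeR counts lie below the 17.2% and 17.3% of all genes at that level. Their median genotype difference (log2, null less WT) was 0.10 in neurons and 0.08 in progenitors, against 0.00 for all genes. The test called 12 in neurons and 20 in progenitors with null replicate 1 left out, of 70 and 73 tested, where it called 20.7% and 35.8% of all genes. With null replicate 2 left out it called 0 of 69 and 8 of 74, where it called 3.35% and 16.5% of all genes.

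The genes whose levels followed the members most closely were sought among 6585 genes with a mean of at least 20 CPM, over 24 sums (6 stages and subtypes in 4 libraries). Pearson's r of log2 CPM is given as a description, since sums of a library share its depth and scale. Apc was followed most closely by Kmt2e (0.987), Nbea (0.986) and Lrp1 (0.983), and the closest member was Gsk3b (0.887). Kmt2e encodes a chromatin reader, Nbea a protein of vesicle traffic in neurons and Lrp1 an endocytic receptor. Gsk3b was followed by Klf12 (0.965), Fam214b (0.959) and Ubn2 (0.958). Ctnnb1 was followed by Sema5b (0.976), Smo (0.954) and Bmpr1a (0.952), with Smo the signalling receptor of the hedgehog pathway and Bmpr1a a receptor for BMP ligands.

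Tcf7l1 was followed by Zfp36l1 (0.947), Gatad2a (0.941) and Nrarp (0.937), and of the members Ctnnb1 was closest (0.82). Tcf7l2 was followed by Serbp1 (0.971), Oat (0.96) and Nop58 (0.96), with Tcf7l1 the closest member (0.819). Axin1 was followed by Xist (0.892), Tsix (0.878) and Ankrd11 (0.869), of which Xist and Tsix are transcripts of the X inactivation centre. Xist differed between the null and WT libraries as given above, and no other member of the 8 had it among its 3 closest genes. In null replicate 1, male-classed and female-classed cells had Axin1 at 24.1 and 22.8 CPM in neurons and 27.2 and 25.1 CPM in progenitors. In null replicate 2 these were 21.7 and 22.6 CPM, and 27.5 and 28.1 CPM. The part of sex in this likeness was not tested. The correlations were lower for Axin2, followed by Vps37b (0.714), Mfn1 (0.655) and Gpr107 (0.651), and Lef1, followed by Shisa4 (0.862), Vps16 (0.828) and Hdlbp (0.828), both at low counts.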

How the data were processed

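Single-cell RNA sequencing had been performed on e14.5 MGE in 4 libraries. The authors deposited raw UMI counts per gene and barcode, with gene and barcode names beside them, without normalization and with empty droplets included. According to the submitters' processing notes these came from Cell Ranger 5.0.1 and GRCm38, while the matrix headers name another version. Strand handling was not given in the sources used here. The labels carry no replicate numbers, so libraries were numbered in sample order.

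Cells needed at least 200 genes, 3000 UMIs and at most 10% mt- UMIs. Scrublet (scanpy 1.11.5) called under 0.1% by its own threshold, so the highest scores were removed at 0.8% per 1000 cells. Seurat 5.3.0 clustering followed the study's methods (2000 variable genes without the members and the Wnt list, the difference of cell cycle scores regressed out, 49 components, Louvain resolution 1.4), then neurons and progenitors were clustered again. Names of other classes, such as erythroid, needed 3 markers with a UMI in 25% of cells and a log2 fold of 1. Remaining clusters became progenitors or neurons by the marker list with the higher mean score. This needed 3 of its markers in 25% of cells and no fold. Some were near ties, such as a progenitor cluster of 1021 cells (progenitor 0.191, neuron 0.145) and a neuron cluster of 267 cells (0.498 and 0.593). Subtypes needed 3 markers in 25% of cells at a log2 fold of 0.5, and progenitor stages at a fold of at least 0. Shares may differ from the study's through rebuilt names. The clustering was repeated with 2 other seeds, an alternative added after runs that differed only in rounding had given different clusters. Male- and female-classed cells were told by Xist and Y-linked UMIs.

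UMI counts were added up per library and class and tested, two-sided at an adjusted p of 0.05, with edgeR 4.0.16 (TMM, filterByExpr, quasi-likelihood) in R 4.3.3, with the library as a block between classes. The SE of an edgeR fit was derived as the size of the log2 fold change over the square root of the F statistic. Alternatives included DESeq2 1.42.0. The script was tested on simulated counts. Intervals are exact Poisson at 95% and cover counting error only. A count of 0 is read as up to 3, a set floor and not the limit of such an interval. Python 3.11.15 ran matplotlib 3.10.9, pandas 2.3.3, scipy 1.17.1 and numpy 2.4.6. CPM is scaled to 1000000 UMIs of the cells summed. Genes whose 3' ends overlap another gene may share reads.

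The members and lists were chosen with earlier results of these data known. Named beside the members were Wnt genes past the threshold between progenitors and neurons with at least 10 CPM in the higher class, up to 3 per role and direction (not all are printed), any past it between genotypes, and the 3 genes with a mean of at least 20 CPM most like each member (log2 of CPM + 1). Gsk3a, Myc, Sp5, Tnfrsf19 and the membrane inhibitors were given outside this rule, after their values were seen.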

Additional observations from a re-analysis of the deposited data

Results flagged for a closer look

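For Tcf7l2 the difference between the genotypes itself differed between neurons and progenitors. Null differed from WT by 0.54 on the log2 scale (SE 0.18) in neurons and 0.02 (SE 0.11) in progenitors, and the difference, tested as an interaction term, was 0.57 (SE 0.15, edgeR quasi-likelihood adjusted p = 0.0400). Under the alternatives the value ran from -0.22 to 0.85, the lowest with equal numbers of cells per cluster (adjusted p = 0.893), an alternative added after the data were seen and the only one below 0. It passed with at least 5000 UMIs per cell (0.84, adjusted p = 0.00762), with the highest doublet scores kept (0.60, adjusted p = 0.0401) and without WT replicate 2 (0.74, adjusted p = 0.0356), and under the other alternatives it did not, apart from DESeq2, which gave no adjusted p, with adjusted p from 0.00762 to 0.952 over all of them. Without the 60 pallial-like neurons, which held 207 of the 564 Tcf7l2 UMIs of neurons, the difference was 0.32 (adjusted p = 0.585) and the genotype difference within neurons 0.30 (SE 0.19, adjusted p = 0.444).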

How the results depend on the processing

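No paired analysis was possible because the labels give the libraries no replicate numbers and so no pairs of null and WT. Counts of members called were within 1.5 times of the reported count under the alternatives, except as follows. Without the library as a block 3 members rather than 7 passed between radial glia-like and basal progenitor-like cells, where 47.3% rather than 65.3% of all genes did. Between neuron clusters 7 and 3, 2 rather than 1 passed with library totals alone and in both repeat clusterings, and 1 to 2 when a library was left out. Of all genes, 20.1% passed with library totals alone and 12.7 to 18.8% without a library, against 18.7% as reported. The share in the repeat clusterings is not given here. Leaving out a library gave 0 to 1 members between genotypes in neurons, 0 to 4 in progenitors and 0 to 12 within stages and subtypes, and 0 to 12 and 0 to 20 genes of the Wnt list in neurons and progenitors, where the complete fits gave 0. No filter on low counts gave 2 members in progenitors, 1 within stages and subtypes and 1 gene of the Wnt list in progenitors, and library totals alone gave 2 within stages and subtypes. Of all genes, no filter called 4.4% in progenitors and 0.112 to 3.48% in the fits within stages and subtypes. Library totals alone called 0.0412 to 6.01% in the latter, against 0.0412 to 1.44% as reported. For the difference of the null effects, 0 rather than 1 passed with library totals alone, RLE factors, no filter, thinned cells, male-classed cells, without clusters led by the other class, without the pallial-like cluster, with equal numbers of cells per cluster and in both repeat clusterings, and 0 to 1 without a library, and DESeq2, which gave Tcf7l2 no adjusted p, is not counted as a loss. The cause was not tested.

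The Tcf7l2 difference of the null effects, called as reported, became -0.224 with equal numbers of cells per cluster. The other log2 fold changes that changed sign were not called before or after. For progenitors over neurons, Axin2 became -0.0266 in thinned cells. For cortical interneuron-like over Nkx2-1 ventral-like cells, Axin1 became 0.0090 without a filter, 0.0323 without the block, 0.0209 in a repeat clustering and -0.0593 to 0.0365 without a library. Tcf7l1 became -0.0458 in a repeat clustering, and Tcf7l2 0.0567 and 0.0362 in both. For cluster 7 over cluster 3, Ctnnb1 became -0.0434 in a repeat clustering and -0.0140 to 0.183 without a library, and Axin1 -0.0343 to 0.670 without a library. For null over WT in neurons, equal numbers of cells per cluster gave -0.0706 for Axin2, -0.181 for Tcf7l1 and -0.281 for Tcf7l2, thinned cells -0.402 for Tcf7l1, and leaving out a library -0.409 to 0.576 for Tcf7l1 and -0.291 to 1.11 for Lef1. In progenitors, Axin2 became -0.0242 in thinned cells and -0.154 to 0.288 without a library. Tcf7l2 became -0.0203 at 5000 UMIs, -0.0095 with the doublet scores kept, -0.0448 with equal numbers of cells, -0.0099 in a repeat clustering and -0.0282 to 0.0662 without a library, and Lef1 -0.279 with equal numbers of cells and -0.104 to 0.454 without a library.

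With 2 libraries per genotype, Apc in neurons had a fitted standard error of 0.13, and the difference seen did not pass. Lef1 and Tcf7l1 in neurons rest on 42 and 141 UMIs and are limited by depth. Classes and clusters were rebuilt here, and calls near the threshold moved with the seed of the clustering.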

Other observations

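Part of the Lef1 signal lay in vascular cells. Of its 178 UMIs in all cells, 43 came from 15 cells that held at least 3 endothelial markers and had clustered with the microglia, a level of 94.9 CPM. These 15 cells also held Axin2 at 61.8 CPM, from 28 UMIs, and Ctnnb1 at 428 CPM. The 65 cells with microglial markers and fewer than 3 endothelial ones held 0 Lef1 and 0 Axin2 UMIs, and Ctnnb1 at 159 CPM. Droplets with under 100 UMIs, which hold free RNA, held Apc at 138 to 149.9 CPM and Tcf7l2 at 10.5 to 16.3 CPM in the 4 libraries, between the levels of progenitors and neurons for Tcf7l2 and within those of progenitors for Apc. They held Tcf7l1 at 6.41 to 8.87 CPM, between the classes, and Ctnnb1 at 321 to 346.5 CPM, overlapping progenitors. Lef1 was at 0.493 to 2.77 CPM there, from 1 to 6 UMIs, against 0.283 to 1.55 CPM in progenitors and neurons. Its level in these classes was thus not above that of free RNA. The part of free RNA in the levels above was not tested.

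Within null replicate 2, male-classed and female-classed neurons, which stood at 30.7 and 97.1 CPM of St18, had Apc at 511 and 469 CPM, Gsk3b at 670 and 671 CPM and Axin1 at 21.7 and 22.6 CPM. In null replicate 1 the same classes, at 29.4 and 22.8 CPM of St18, had Apc at 399 and 398 CPM. Male-classed neurons of the WT libraries had Apc at 344 and 325 CPM. These values come from single libraries and carry no test.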
